A study of Mus musculus with 10 samples.

Results

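Interleukins are secreted proteins that carry signals between leukocytes and between leukocytes and tissue cells, and the interleukin receptor genes encode the membrane chains that bind them. The genes described here were the protein-coding genes of the deposited table whose symbol starts with Il and a digit, without Il1a, Il1b, Il1rn, Il1r1, Il1r2, Il18, Il18bp, Il33 and Il6. They numbered 75 of 54532 genes, of which 22046 were protein coding, and comprised 33 ligands, 41 receptor genes and 1 enzyme that carries an interleukin name, Il4i1. Because Il11ra2 is listed 3 times, the 75 entries bear 73 symbols. Ligands were compared with receptors, and both were followed across kidneys of mice given PBS or dimethyl malonate (DMM).

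Bulk RNA-seq was performed on kidneys of wild-type (WT) male C57BL/6 mice with unilateral ureteral obstruction (UUO), a surgical model of obstructive nephropathy. Obstruction was done at 8 weeks of age and kidneys were harvested 14 days later. The DMM group received 40 mg/kg of DMM, an ester of malonate that inhibits succinate dehydrogenase, by intraperitoneal injection every other day, and the control group received PBS. Each group had 5 libraries and each library came from 1 mouse, so the comparison asks which interleukin genes differed with DMM in kidneys that were all obstructed. Total counts were 16457495 to 18078777 per library in PBS (median 17825223) and 15722527 to 19475833 in DMM (median 16794390). At this depth 3 counts correspond to 0.159 to 0.191 CPM, the unit of counts relative to the TMM-scaled library total, and such limits cover counting error only, since PCR copies of a molecule are counted as separate reads.

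Most interleukins bind a receptor made of a private chain, which gives specificity, and a chain shared by several ligands, which carries the signal into the cell through Janus kinases (JAK) and STAT transcription factors. The common gamma chain, the common beta chain and gp130 are such shared chains, whereas the receptors of the IL-1 and IL-17 families signal through adaptor proteins instead. In the obstructed kidney, ligands come from injured tubule cells as well as from infiltrating leukocytes, and many of the private receptor chains are carried by lymphocytes and myeloid cells.

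A pair of libraries stood apart from their groups. In the means of both groups that the authors deposited, PBS replicate 3 and DMM replicate 1 carry a weight of 0 and the other 8 libraries a weight of 0.227 to 0.271, and the reason is not given in the sources used here. The calls and most fold changes are therefore given over all 10 libraries and over those 8, sets that share libraries and are no independent check of each other. For 8 of the 10 interleukin genes called below, DMM replicate 1 lay within the range of the other PBS libraries, and for the other 2, Il2rg and Il27ra, it lay between the groups. PBS replicate 3 lay within the PBS range for 5 of these genes, between the groups for 3 and within the range of the other DMM libraries for 2. These genes were called in a fit without both libraries. Their values are therefore no independent sign that the libraries stand apart. DMM replicate 4 was also far from its group for several genes, and it shared high values of Il11, Il1f9 and Il24 with PBS replicate 4. Umod, Lrp2 and the other markers of kidney tubules were detected in every library, as the tissue label calls for, and are given with the other marker lists.

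Of the 75 genes, 42 had enough counts to be tested, namely 11 of 33 ligands and 31 of 41 receptors. The 33 others comprised 22 ligands, 10 receptors and Il4i1. At 0 counts in every library were 6 of them, the ligands Il9, Il20, Il22, Il17b and Il31 and a copy of Il11ra2, and 19 never went above 3 counts. The lymphocyte ligands Il2, Il3, Il5, Il13, Il17a and Il21 belonged to the latter, with at most 3, 2, 2, 3, 1 and 1 counts in any library. Differences in these genes were not detectable at this depth. Among the untested genes with more counts were Il1f9 with at most 137 counts, Il1f5 with 19, Il9r and Il23r with 16 each, Il24 with 14, Il23a with 11, Il17c with 10 and Il12a with 4.

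Levels between genes were compared as CPM per kb of gene length, averaged over all 10 libraries. The median level was 1.72 CPM per kb over the 11 tested ligands and 3.73 over the 31 tested receptors. These medians leave out the 22 ligands and 10 receptors that had too few counts to be tested. Among those left out, 16 ligands and 3 receptors never went above 3 counts. The medians therefore do not compare all 33 ligands with all 41 receptors. The ligands ranged from 0.486 for Il10 to 42.2 for Il34, and the receptors from 0.129 for Il31ra to 63.4 for Il6st, so that the range of the ligands lay within that of the receptors. The highest ligands were Il34 (42.2 ± 10.1 CPM per kb, mean ± SD, n = 10), Il1f6 (17.6 ± 7.69) and Il15 (4.11 ± 1.16). The highest receptors were Il6st (63.4 ± 19.98 CPM per kb), Il13ra1 (39.2 ± 5.70) and Il4ra (18.5 ± 2.81), followed by Il10ra (15.4 ± 6.59). The levels of Il34 and Il13ra1 did not differ beyond their spread, nor did those of Il1f6 and Il4ra.

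**Figure D1:**
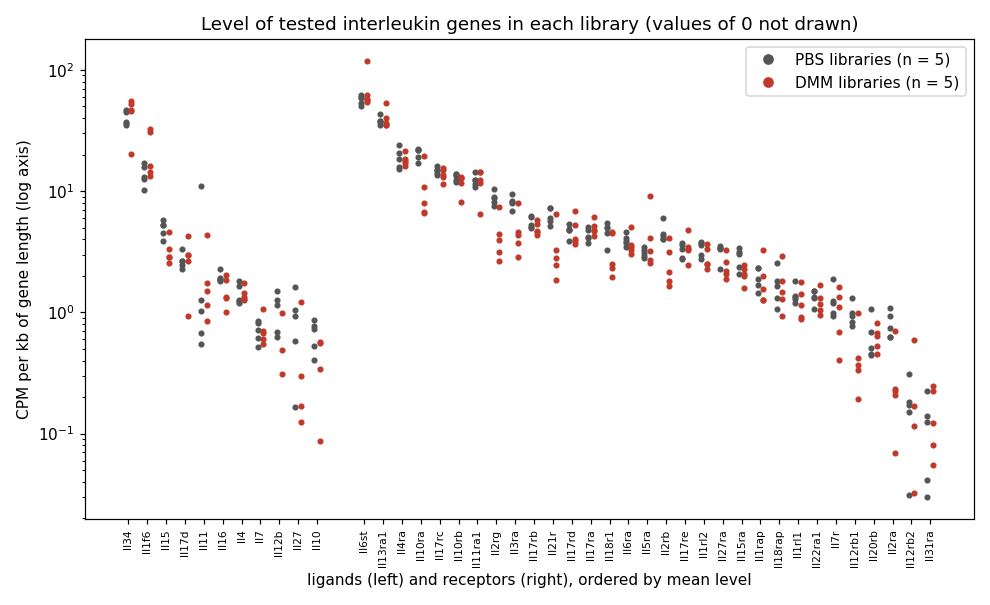
CPM per kb of gene length (log axis) of the 11 tested ligands and 31 tested receptors, with a point for each PBS (grey) and DMM (red) library and values of 0 left out. Ligand levels span 0.486 to 42.2 CPM per kb on average and receptor levels 0.129 to 63.4, and the red points of Il10ra and Il2rg lie mostly under the grey ones.

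Calls rest on edgeR's quasi-likelihood test across all genes that passed the filter, with a fold change of more than 1.5 and, after Benjamini-Hochberg adjustment, p below 0.05. In the 8 libraries, 10 of the 42 tested interleukin genes fell with DMM and 0 rose. The ones that fell were 2 of 11 ligands (18.2%), Il15 and Il27, and 8 of 31 receptors (25.8%), Il2ra, Il2rb, Il2rg, Il21r, Il3ra, Il10ra, Il12rb1 and Il27ra. Together they made up 23.8% of the tested interleukin genes, where 3.56% of 16550 genes were called lower and 2.73% called higher. The ligand calls were both lost in 6 of the 8 fits that left out a library of the 8, and the difference between the shares of ligands and receptors was not tested. In the 8 libraries Il27 had 10 to 28 counts in PBS and at most 5 in DMM. It therefore passed the filter on counts through the PBS libraries alone, and the ligand share of 18.2% depends on it. With all 10 libraries, edgeR called 0 interleukin genes and 0 of 16505 genes in all (0%), with a smallest adjusted p of 0.378. DESeq2 called 1 interleukin gene, Il2rg, and 45 genes in all over the same libraries.

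Without the adjustment, 8 interleukin genes had a p under 0.05 and a fold above 1.5 in the lower direction in all 10 libraries, namely Il15 and the receptors Il2ra, Il2rb, Il2rg, Il21r, Il3ra, Il10ra and Il12rb1. These genes passed the adjusted test when DMM replicate 1 was the only library left out. At the same unadjusted limits, 4.11% of all genes were lower and 1.91% higher, 993 in all, and the single interleukin gene in the higher direction was the ligand Il1f6. The median log2 fold change of DMM over PBS was −0.18 over the 42 genes in the 8 libraries and −0.12 in all 10, against 0.021 and 0.019 over all genes. Below 0 were 32 of the 42 in the 8 libraries and 28 in all 10, where the shares among all genes were 47.6% and 47.2%. Ligands had a median of −0.43 in the 8 libraries and −0.36 in all 10, and receptors −0.15 and −0.10. The ligand medians include Il27 and Il12b, at −2.76 and −2.23 in the 8 libraries. Both were tested although they had few counts in DMM replicates 2 to 5, at most 5 and 15. The medians therefore do not show that ligands fell more than receptors, and their difference was not tested. In these bulk libraries fewer cells of a type and less RNA per cell cannot be told apart.

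**Figure D2:**
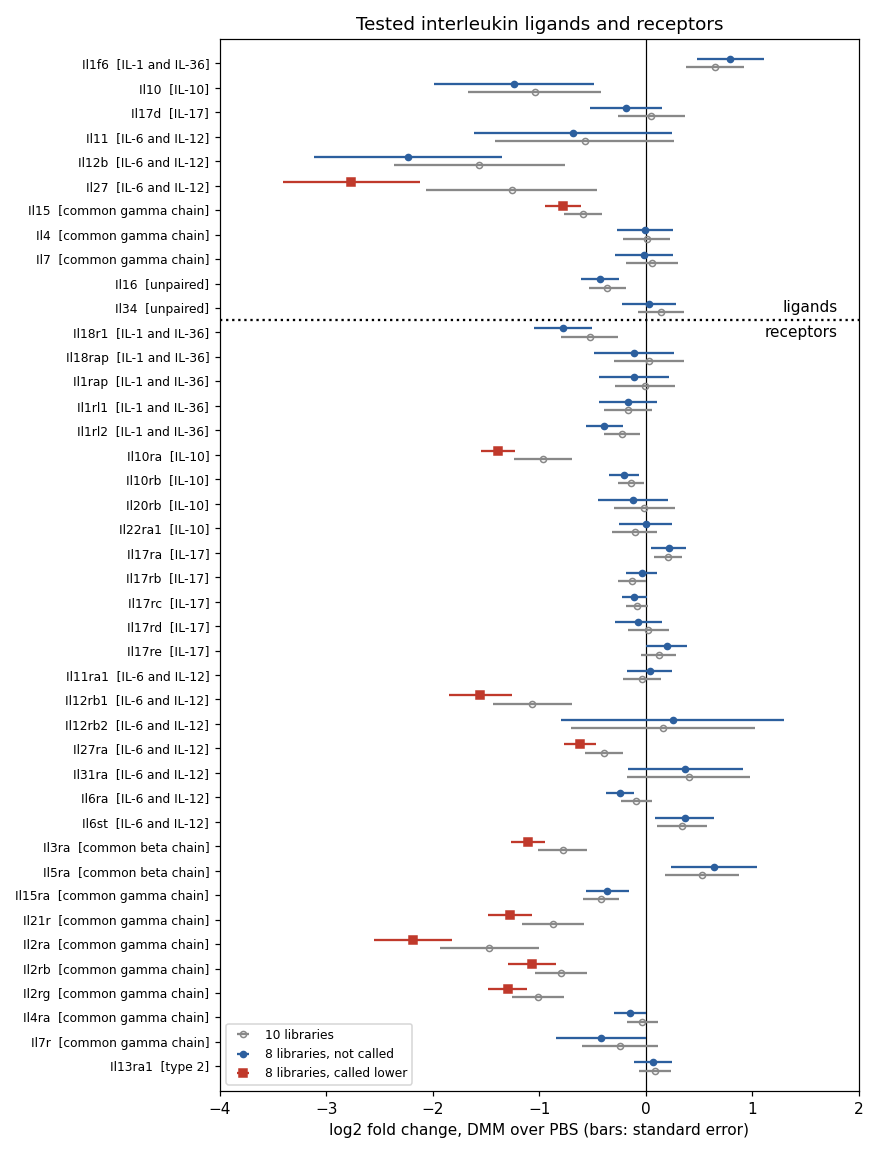
Log2 fold change of DMM over PBS with its standard error for the 42 tested interleukin genes, ligands above the dotted line and receptors beneath it, with the receptor family in brackets. Over the 8 libraries (filled) 10 genes were called lower (red squares), and in all 10 libraries (open circles) 0 were, with receptors of the common gamma chain family showing several of the falls and those of the IL-17 family staying between −0.11 and 0.21 in the 8.

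Among the ligands, Il15 (chr8:82331632-82403222, minus strand, mm10) encodes a cytokine that sustains natural killer (NK) cells and memory T cells. Its CPM was 8.80, 11.9, 10.2, 13.2 and 11.96 in PBS replicates 1 to 5 and 10.4, 6.49, 7.59, 5.81 and 6.52 in DMM replicates 1 to 5. All PBS libraries lay above DMM replicates 2 to 5, and DMM replicate 1 lay among them. Il15 fell in the 8 libraries from a mean of 11.5 ± 1.87 CPM (SD, n = 4) to 6.60 ± 0.733 CPM (n = 4), a log2 fold change of −0.78 ± 0.17 (SE) with an edgeR adjusted p of 0.0301. With all 10 the log2 fold change was −0.59 ± 0.18 (adjusted p = 0.378). The call in the 8 libraries was lost without PBS replicate 2, 4 or 5 or DMM replicate 2, 3 or 5, at adjusted p of 0.0642 to 0.101. Il15ra, the chain that presents IL-15 to neighbouring cells, had 12.1 ± 2.77 CPM in PBS and 9.30 ± 1.63 CPM in DMM (mean ± SD, n = 4 each) and was not called in either set (log2 fold change −0.36 and edgeR adjusted p = 0.345 in the 8 libraries, −0.42 and 0.415 in all 10).

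Il27 (chr7:126589010-126594941, minus strand) encodes a subunit of IL-27, a cytokine of myeloid cells that acts on T cells. Its counts were few, at 18, 10, 3, 20 and 28 in PBS replicates 1 to 5 and 20, 2, 3, 0 and 5 in DMM replicates 1 to 5. Near the limit of 3 counts were DMM replicates 2 to 5 with at most 5, PBS replicates 1, 2, 4 and 5 had 10 to 28, and both libraries without weight went against their groups, with PBS replicate 3 among the DMM libraries and DMM replicate 1 among the PBS ones. The log2 fold change in the 8 libraries was −2.76 ± 0.65 (SE, edgeR adjusted p = 0.0367), and in all 10 it was −1.26 ± 0.80 (adjusted p = 0.554). The call was lost without PBS replicate 1, 2, 4 or 5 or DMM replicate 2, 3 or 5, with adjusted p of 0.0591 to 0.122. Il27 overlaps the protein-coding gene Apobr on the opposite strand, and since the strand setting of the counting is not given in the sources used here, reads of these genes cannot be told apart.

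The receptor of IL-27 pairs Il27ra with gp130. CPM of Il27ra (chr8:84030294-84042589, minus strand) was 11.8, 11.98, 8.01, 11.6 and 12.4 in PBS replicates 1 to 5 and 11.3, 9.10, 7.25, 7.73 and 6.58 in DMM replicates 1 to 5. PBS replicates 1, 2, 4 and 5 lay close together and above all DMM libraries, whereas PBS replicate 3 lay within the DMM range and DMM replicate 1 just under the other PBS libraries. Il27ra fell in the 8 libraries with a log2 fold change of −0.62 ± 0.15 (SE, edgeR adjusted p = 0.0429), the smallest change among the 10 called genes, and in all 10 the value was −0.39 ± 0.18 (adjusted p = 0.462). Leaving out PBS replicate 1, 2, 4 or 5 or DMM replicate 3 or 5 ended the call, with adjusted p of 0.102 to 0.129. Il27ra overlaps Palm3 on the opposite strand, so that its counts carry the same uncertainty as those of Il27.

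Il1f6 (chr2:24215418-24225702, plus strand) is the gene of IL-36 alpha, which epithelial cells release and which activates leukocytes and neighbouring epithelium. It had the highest fold change of the 42 tested interleukin genes in the 8 libraries. The untested Il1f5, with at most 19 counts, averaged 0.282 ± 0.133 CPM in PBS and 0.736 ± 0.249 CPM in DMM (SD, n = 4 each). In CPM Il1f6 stood at 11.6, 9.01, 13.9, 11.1 and 15.2 in PBS replicates 1 to 5 and 14.1, 11.8, 28.8, 12.8 and 27.1 in DMM replicates 1 to 5. DMM replicates 3 and 5 were above all other libraries, and DMM replicates 1, 2 and 4 lay within the PBS range. The log2 fold change was 0.79 ± 0.32 (SE) in the 8 libraries and 0.65 ± 0.27 in all 10, and edgeR did not call it in either set (adjusted p = 0.185 and 0.430). Without DMM replicate 4 it was called higher over the remaining libraries of the 8, at a log2 fold change of 0.95 and an adjusted p of 0.0385, in a fit where the calls over all genes rose from 1042 to 2410. Its receptor chains Il1rl2, which binds IL-36, and Il1rap, the accessory chain, were not called, with log2 fold changes of −0.39 and −0.11 in the 8 libraries and −0.22 and −0.0080 in all 10. CPM of Il1rap was 37.03 in DMM replicate 4 and 14.3 to 22.6 in the other DMM libraries, and in the same fit without that library Il1rap was called lower (log2 fold change −0.59, edgeR adjusted p = 0.0156).

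Il34 (chr8:110741829-110805924, minus strand), which encodes a ligand of the macrophage receptor Csf1r and is made by tubule cells, was the most abundant ligand per length. Its CPM was 71.8, 87.8, 68.7, 73.2 and 91.8 in PBS replicates 1 to 5 and 103, 108, 91.7, 39.7 and 90.3 in DMM replicates 1 to 5. DMM replicates 1 and 2 lay above all PBS libraries, DMM replicates 3 and 5 in the upper part of the PBS range, and DMM replicate 4 was the lowest of all 10 libraries. Il34 was not called, with a log2 fold change of 0.033 ± 0.25 (SE, edgeR adjusted p = 0.955) in the 8 libraries and 0.14 ± 0.22 in all 10, and its direction in the 8 turned when any of several libraries was left out. Antisense genes lie opposite Il34, of which Gm15895 had up to 142 counts in a library. Csf1, the other ligand of Csf1r, is described with the signaling genes.

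Other ligands of the IL-12 and IL-10 families were scarce. Il12b encodes the subunit that IL-12 and IL-23 share and had 47, 23, 52, 23 and 38 counts in PBS replicates 1 to 5 and 31, 15, 0, 0 and 10 counts in DMM replicates 1 to 5. Each DMM library of the 8 was below each PBS library, as for 11.2% of all tested genes, and DMM replicates 3 and 4 were at 0. EdgeR did not call it (log2 fold change −2.23 ± 0.89, adjusted p = 0.183 in the 8 libraries, and −1.56 ± 0.80, adjusted p = 0.501 in all 10). Il10, the gene of an anti-inflammatory cytokine, had 0 to 20 counts per library and a log2 fold change of −1.24 ± 0.75 (edgeR adjusted p = 0.385) in the 8 libraries, against −1.04 ± 0.63 in all 10. Of the 42 tested interleukin genes, 11 had each DMM library of the 8 below each PBS library, the 10 called ones and Il12b, and in all 10 libraries 1 did, Il2rg, as did 1.24% of all tested genes.

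The remaining tested ligands were not called. Il4, a cytokine of type 2 immunity, had 25 to 42 counts per library and a log2 fold change of −0.0073 ± 0.26 in the 8 libraries and 0.0082 ± 0.22 in all 10. Il7 (a survival factor of lymphocytes), Il16 (a chemoattractant of Cd4-bearing cells) and Il17d had log2 fold changes of −0.016, −0.43 and −0.19 in the 8 libraries and 0.060, −0.36 and 0.053 in all 10. Opposite Il16 lies Stard5, with up to 1715 counts in a library, and opposite Il7 lies Gm16685, with up to 137, so that the unknown strand setting limits both. Il11, a ligand of the gp130 family that is linked to fibrosis, was dominated by a pair of libraries, at 1.11, 2.55, 1.36, 22.3 and 2.07 CPM in PBS replicates 1 to 5 and 2.30, 3.50, 1.71, 8.69 and 3.05 CPM in DMM replicates 1 to 5. PBS replicate 4 and DMM replicate 4 stood above all other libraries, which were at 1.11 to 3.50 CPM, and the log2 fold change of −0.68 ± 0.93 in the 8 libraries was not called (edgeR adjusted p = 0.718), nor was that of −0.57 ± 0.84 in all 10. Il1f9 (IL-36 gamma) showed the same libraries as high, with 1, 2, 8, 106 and 23 counts in PBS replicates 1 to 5 and 14, 1, 10, 137 and 9 counts in DMM replicates 1 to 5. Il24 also had its highest counts, 14 each, in PBS replicate 4 and DMM replicate 4, and at most 2 in any other library.

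Receptors of the common gamma chain family made up 4 of the 8 called receptors. Of the 7 tested in the 8 libraries, 4 were called lower, Il2ra, Il2rb, Il2rg and Il21r, and 0 were called higher, against 3.56% and 2.73% of all tested genes, and the call of Il2rb was lost in 6 of the 8 fits that left out a library. The median log2 fold change of the 7 was −1.07 in the 8 libraries and −0.80 in all 10, and all 7 were below 0 in both sets. Of their 6 ligands, 3 were tested, with Il15 called lower and Il4 and Il7 near 0.

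Il2rg (chrX:101264378-101268255, minus strand) is the common gamma chain itself, shared by the receptors of IL-2, IL-4, IL-7, IL-9, IL-15 and IL-21. Its CPM was 19.5, 18.1, 20.8, 21.4 and 24.9 in PBS replicates 1 to 5 and 17.7, 10.6, 9.41, 6.32 and 7.49 in DMM replicates 1 to 5. All 5 DMM libraries lay below all 5 PBS libraries, DMM replicate 1 by a narrow margin to PBS replicate 2. Il2rg fell in the 8 libraries from 20.98 ± 2.91 to 8.45 ± 1.90 CPM (mean ± SD, n = 4 each), a log2 fold change of −1.30 ± 0.18 (SE, edgeR adjusted p = 0.00531). Across all 10 the log2 fold change was −1.01 ± 0.24 with an adjusted p of 0.378 by edgeR and 0.0371 by DESeq2.

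Il2ra and Il2rb complete the high-affinity IL-2 receptor, and Il2rb also serves IL-15. Il2ra (chr2:11642807-11693193, plus strand), which activated and regulatory T cells carry, measured 5.30, 3.56, 3.58, 4.26 and 6.22 CPM in PBS replicates 1 to 5 and 4.05, 1.34, 1.20, 0.395 and 1.28 CPM in DMM replicates 1 to 5. Each of DMM replicates 2 to 5 was below all PBS libraries, and DMM replicate 1 exceeded PBS replicates 2 and 3. Il2ra had the largest fall among the tested receptors, a log2 fold change of −2.19 ± 0.36 (SE, edgeR adjusted p = 0.0106) in the 8 libraries. Its value in all 10 was −1.47 ± 0.46 (adjusted p = 0.385). For Il2rb (chr15:78479256-78495271, minus strand), CPM was 18.2, 18.9, 17.2, 17.3 and 25.6 in PBS replicates 1 to 5 and 17.7, 13.6, 7.13, 7.79 and 9.20 in DMM replicates 1 to 5. PBS replicate 5 stood above the other PBS libraries, DMM replicate 1 lay among them and DMM replicates 2 to 5 lay below. Il2rb fell in the 8 libraries with a log2 fold change of −1.07 ± 0.23 (edgeR adjusted p = 0.0258), against −0.80 ± 0.24 in all 10 (adjusted p = 0.378), and this call was lost without PBS replicate 1, 2, 4 or 5 or DMM replicate 3 or 5, at adjusted p of 0.0579 to 0.0900. Il2 itself had 0 to 3 counts per library.

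Il21r (chr7:125603429-125633570, plus strand), the private chain for IL-21 on B, T and NK cells, read 17.2, 24.3, 18.9, 19.8 and 24.1 CPM in PBS replicates 1 to 5 and 21.6, 10.9, 6.16, 9.43 and 8.16 CPM in DMM replicates 1 to 5. The lowest PBS library was above DMM replicates 2 to 5, and DMM replicate 1 was above 3 of the 5 PBS libraries. The fall in the 8 libraries was a log2 fold change of −1.28 ± 0.21 (SE, edgeR adjusted p = 0.00986), and the value in all 10 was −0.87 ± 0.29 (adjusted p = 0.385). Its ligand Il21 had at most 1 count in any library. The other tested chains of the family, Il4ra, Il7r and Il15ra, were not called, with log2 fold changes of −0.15, −0.42 and −0.36 in the 8 libraries and −0.031, −0.24 and −0.42 in all 10.

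**Figure D3:**
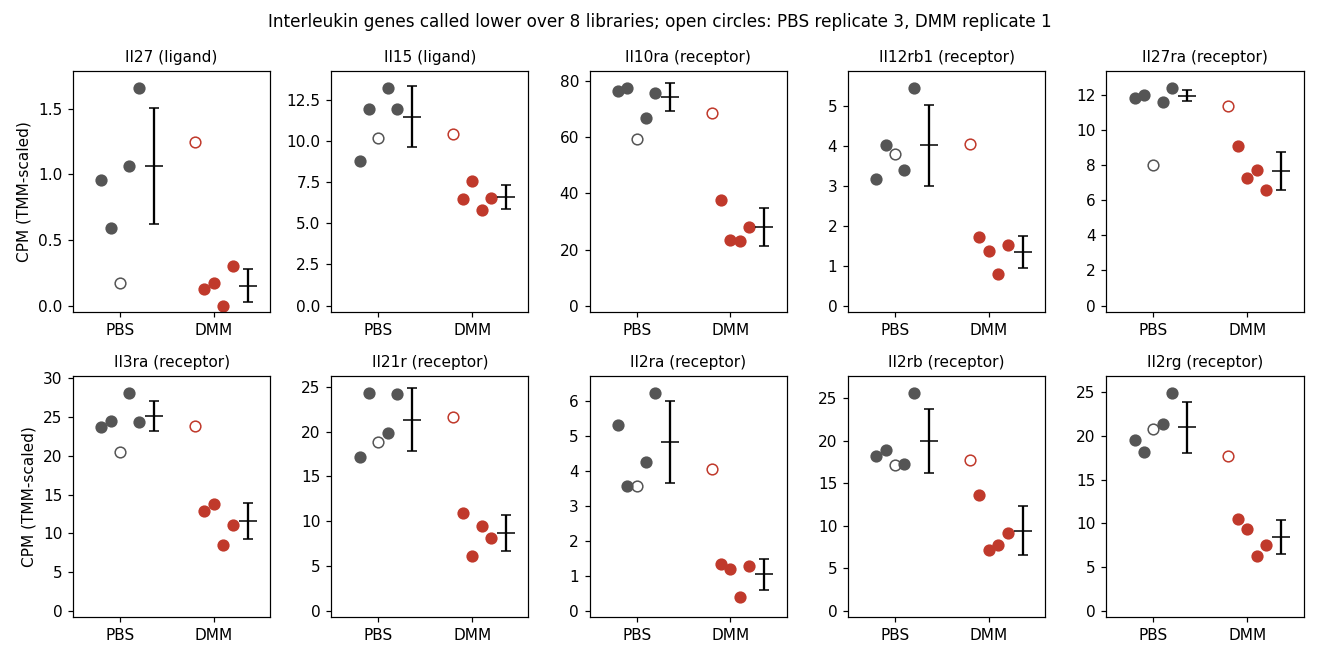
CPM in each library of the 10 interleukin genes called lower in the 8 libraries, with open circles for PBS replicate 3 and DMM replicate 1 and bars for the mean ± SD of the 8 (n = 4 per group). DMM replicates 2 to 5 lie below PBS replicates 1, 2, 4 and 5 in all 10 genes, and DMM replicate 1 lies within the range of those PBS libraries in 8.

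Il10ra (chr9:45253837-45269149, minus strand), the private chain of the IL-10 receptor on leukocytes, was the called gene with the highest level per length. CPM was 76.7, 77.6, 59.5, 66.98 and 76.00 in PBS replicates 1 to 5 and 68.6, 37.7, 23.6, 23.03 and 28.1 in DMM replicates 1 to 5. Values in DMM replicates 2 to 5 were at most 37.7, below the lowest PBS value of 59.5 in replicate 3, and DMM replicate 1 lay within the PBS range. Il10ra fell in the 8 libraries from 74.3 ± 4.94 to 28.1 ± 6.80 CPM (mean ± SD, n = 4 each), a log2 fold change of −1.38 ± 0.16 (SE) with the smallest adjusted p among the interleukin genes, 0.00192 by edgeR. Across all 10 libraries it was −0.97 ± 0.27 (adjusted p = 0.378). The shared chain Il10rb, which also serves IL-22 and type III interferons, had 50.1 ± 3.37 CPM in PBS and 43.1 ± 8.37 CPM in DMM (mean ± SD, n = 4 each) and was not called (log2 fold change −0.20 ± 0.14, edgeR adjusted p = 0.452, and −0.14 ± 0.12 in all 10). A pseudogene lies opposite Il10ra, with up to 46 counts in a library. Of the 4 tested receptors of the IL-10 family, Il10ra was the 1 called in the 8 libraries, where 3.56% of all tested genes were called lower. Il22ra1 and Il20rb had log2 fold changes of −0.0016 and −0.12 in the 8 libraries.

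Il3ra (chr14:14346275-14356011, plus strand), the IL-3 chain of basophils, mast cells and plasmacytoid dendritic cells, reached 23.8, 24.5, 20.4, 28.04 and 24.3 CPM in PBS replicates 1 to 5 and 23.8, 12.9, 13.7, 8.52 and 11.1 CPM in DMM replicates 1 to 5. No PBS library was as low as DMM replicates 2 to 5, and DMM replicate 1 lay within the PBS range. Il3ra fell in the 8 libraries with a log2 fold change of −1.11 ± 0.16 (SE, edgeR adjusted p = 0.00531), and the value in all 10 was −0.78 ± 0.23 (adjusted p = 0.378). Il3 had at most 2 counts in any library. Il5ra, another private chain of the common beta family, which eosinophils and some B cells carry, had a log2 fold change in the other direction, 0.64 ± 0.41 in the 8 libraries and 0.53 ± 0.34 in all 10, and was not called (edgeR adjusted p = 0.411 and 0.562). Its CPM was 32.8 in DMM replicate 4 and 9.14 to 14.6 in the other 9 libraries.

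Il12rb1 (chr8:70808449-70821424, plus strand) is shared by the receptors of IL-12 and IL-23 on T and NK cells. In CPM its values were 3.18, 4.03, 3.81, 3.40 and 5.45 in PBS replicates 1 to 5 and 4.05, 1.72, 1.37, 0.790 and 1.52 in DMM replicates 1 to 5. DMM replicates 2 to 5 were below all PBS libraries, and DMM replicate 1 was above 4 of the 5 PBS libraries. The log2 fold change was −1.55 ± 0.29 (SE, edgeR adjusted p = 0.0168) in the 8 libraries and −1.06 ± 0.37 (adjusted p = 0.387) in all 10, and the call was lost without PBS replicate 2 or 5 or DMM replicate 3 or 5, at adjusted p of 0.0520 to 0.0644. Its partners were scarce, Il12rb2 with 0 to 40 counts per library and a log2 fold change of 0.25 ± 1.05 (edgeR adjusted p = 0.915) in the 8 and 0.16 ± 0.87 in all 10, and Il23r with at most 16 counts and no test. Il12rb2 lies opposite Serbp1, which had up to 5709 counts.

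The receptors with the highest levels per length were not called. Il6st encodes gp130, the signaling chain of IL-6, IL-11 and IL-27 on nearly all cells, and its CPM was 561, 659.8, 588, 686 and 648 in PBS replicates 1 to 5 and 689, 609, 626, 1324 and 641 in DMM replicates 1 to 5. DMM replicate 4 stood far above all other libraries, and the other DMM libraries lay close to or within the PBS range. The log2 fold change of 0.36 ± 0.28 (SE, edgeR adjusted p = 0.497) in the 8 libraries became −0.034 without DMM replicate 4, and in all 10 it was 0.34 ± 0.23. Il13ra1, a chain of the IL-4 and IL-13 receptor on non-lymphoid cells, measured 139, 140.3, 131, 161 and 140.1 CPM in PBS replicates 1 to 5 and 149, 129, 129.5, 199 and 136 CPM in DMM replicates 1 to 5. DMM replicate 4 was again the highest library, and the log2 fold change of 0.065 ± 0.18 in the 8 libraries and 0.090 ± 0.15 in all 10 turned to −0.14 and −0.067 without it. Il4ra, the chain shared by IL-4 and IL-13, read 90.6, 110.01, 94.96, 145 and 124 CPM in PBS replicates 1 to 5 and 128, 97.2, 103, 107 and 110.1 CPM in DMM replicates 1 to 5, with wide overlap of the groups and a log2 fold change of −0.15 ± 0.15 in the 8 libraries and −0.031 ± 0.14 in all 10.

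Il6ra and Il11ra1, private chains that use gp130, were not called either. Il6ra had 34.6 ± 4.16 CPM in PBS and 28.8 ± 2.06 CPM in DMM (mean ± SD, n = 4 each), a log2 fold change of −0.24 ± 0.13 (SE, edgeR adjusted p = 0.317) in the 8 and −0.090 ± 0.15 in all 10, and its highest value in DMM replicate 1. Il11ra1, the IL-11 chain of stromal cells, had 52.3 ± 3.27 CPM in PBS and 53.2 ± 16.6 CPM in DMM (mean ± SD, n = 4 each) and a log2 fold change of 0.036 ± 0.21 (edgeR adjusted p = 0.942) in the 8 and −0.034 ± 0.18 in all 10. Il11ra1 has near-identical copies under the symbol Il11ra2 and overlaps Galt and other genes, so that its reads could be split or shared among them. Of the 7 tested receptors of the IL-6 and IL-12 families, 2 were called lower in the 8 libraries and 0 in all 10. Of all tested genes, 3.56% were called lower in the 8 and 0% in all 10.

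All 5 receptors of the IL-17 family were tested and 0 were called, where 3.56% of all tested genes were called lower and 2.73% higher in the 8 libraries. Their log2 fold changes lay between −0.11 and 0.21 in the 8 libraries, with a median of −0.039. Il17ra, a chain shared by several receptors of the family, had a log2 fold change of 0.21 ± 0.16 (SE) in the 8 libraries and 0.21 ± 0.13 in all 10, and Il17rc, its partner for IL-17A on epithelial and stromal cells, −0.11 ± 0.12 and −0.082 ± 0.099. Of the 6 ligands of the family, Il17d was the 1 tested. Of the 5 tested receptors of the IL-1 and IL-36 family, 0 were called. Among them Il18r1, the IL-18 chain of T and NK cells, had a log2 fold change of −0.78 ± 0.27 (edgeR adjusted p = 0.134) in the 8 libraries and −0.53 ± 0.27 in all 10, with DMM replicate 4 at 22.1 CPM, within the PBS range, and DMM replicates 2, 3 and 5 at 9.47 to 12.2. Il18r1 was called lower without DMM replicate 4, at a log2 fold change of −1.14 and an edgeR adjusted p of 0.00029, in the same fit with 2410 calls over all genes. The 13 tested receptors outside the rule for naming genes, Il18r1 among them, had log2 fold changes of −0.78 to 0.64 in the 8 libraries and −0.53 to 0.53 in all 10, with a smallest adjusted p of 0.134 in the 8.

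The genes through which interleukin receptors signal are kinases, STAT factors, SOCS inhibitors, adaptors and partner cytokines. Of 38 tested genes in a list that was shortened after the values were seen, edgeR called 5 lower and 0 higher in the 8 libraries, against 3.56% and 2.73% of all tested genes, and 0 across all 10. Those with the smallest p over the 8 are described. Stat2, a STAT factor of type I interferon signaling, had 273, 237, 226, 286 and 280.1 CPM in PBS replicates 1 to 5 and 262, 61.7, 55.5, 40.02 and 45.02 CPM in DMM replicates 1 to 5. All PBS libraries were far above DMM replicates 2 to 5, while DMM replicate 1 lay within the PBS range. Stat2 fell with a log2 fold change of −2.39 in the 8 libraries (edgeR adjusted p = 0.000107), and its value in all 10 was −1.48 (adjusted p = 0.385).

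Socs1, a feedback inhibitor of JAK signaling, fell from 14.1 ± 2.99 to 2.59 ± 1.81 CPM (mean ± SD, n = 4 each) in the 8 libraries, a log2 fold change of −2.44 (edgeR adjusted p = 0.0463). Csf1, which shares the receptor Csf1r with IL-34, fell from 133 ± 8.12 to 64.9 ± 11.9 CPM (mean ± SD, n = 4 each) (log2 fold change −1.02, edgeR adjusted p = 0.00401), and Csf1r itself was not called (log2 fold change −0.37, adjusted p = 0.0666). Myd88, the adaptor of the IL-1 receptor family, and Ptpn6, a phosphatase of leukocytes that dampens cytokine receptors, fell with log2 fold changes of −0.80 and −0.77 (edgeR adjusted p = 0.0247 and 0.0252). Sigirr, an inhibitory member of the IL-1 receptor family on epithelium, had a log2 fold change of 0.68 and was not called (edgeR adjusted p = 0.0551). Across all 10 libraries the log2 fold changes of Socs1, Csf1, Myd88 and Ptpn6 were −1.51, −0.74, −0.57 and −0.59, with 0 called.

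Markers of leukocytes moved with the falling receptors, though edgeR called 0 genes of the marker lists in all 10 libraries. For these and the other lists below, the shares of all tested genes called in the 8 libraries were 3.56% lower and 2.73% higher, and the counts of the short lists were not tested against them. Of 10 T cell markers 2 were called lower in the 8 libraries (Cd4 and Cd2), and their summed CPM was 63.1, 66.5, 62.1, 54.3 and 96.1 in PBS replicates 1 to 5 and 61.1, 49.5, 20.8, 23.6 and 26.7 in DMM replicates 1 to 5, with Cd4 as the most abundant. The sums in DMM replicates 2 to 5 were below all PBS libraries, whereas DMM replicate 1 was within the PBS range. Of 8 NK and cytotoxic markers 1 was called lower (Klrk1, also the most abundant), with summed CPM of 30.96, 22.4, 28.6, 26.7 and 40.4 in PBS replicates 1 to 5 and 24.97, 17.9, 9.19, 15.4 and 12.97 in DMM replicates 1 to 5. Of 6 B cell markers 1 was called lower (Cd22, also the most abundant), and the sums were 15.3, 16.4, 13.9, 18.6 and 17.6 CPM in PBS replicates 1 to 5 and 16.8, 12.2, 7.59, 6.10 and 9.50 CPM in DMM replicates 1 to 5. In these lists too DMM replicates 2 to 5 were below the 5 PBS libraries, and none of the lymphocyte markers was near 0. Their part in the falls of Il2ra, Il2rb, Il2rg, Il21r, Il12rb1 and Il15 was not tested.

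Myeloid markers were also lower in part. Of 9 macrophage and monocyte markers 3 were called lower in the 8 libraries (Cd68, C1qb and Ly6c2), and their sum, led by C1qb, was 1422, 1288, 1119.95, 1356 and 1542 CPM in PBS replicates 1 to 5 and 1209.8, 856, 676, 585 and 702 CPM in DMM replicates 1 to 5. Of 6 dendritic cell markers 2 were called lower (Itgax, the most abundant, and Ccr7), with sums of 146, 122, 122, 119 and 149 CPM in PBS replicates 1 to 5 and 126, 82.2, 55.6, 89.2 and 63.7 CPM in DMM replicates 1 to 5. DMM replicates 2 to 5 were below all PBS libraries in both lists and DMM replicate 1 was within the PBS range. Of 6 neutrophil markers 5 were tested and 0 called, Ly6g was near 0, and their sum, led by Csf3r, was 25.02, 25.3, 22.1, 115 and 34.8 CPM in PBS replicates 1 to 5 and 32.2, 18.4, 28.9, 94.9 and 26.9 CPM in DMM replicates 1 to 5, with PBS replicate 4 and DMM replicate 4 the highest, as for Il11, Il1f9 and Il24. Of 7 markers of mast cells and basophils, which carry Il3ra, 6 were near 0 (Cpa3, Mcpt4, Cma1, Tpsb2, Mcpt8 and Fcer1a) and Ms4a2 was the most abundant, with sums of at most 1.26 CPM in any library. The part of the myeloid cells in the falls of Il10ra, Il3ra, Il27 and Il27ra was not tested.

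Markers of interferon signaling were lower in the 8 libraries, and those of resident cells changed in part. All 10 interferon response genes were called lower in the 8 libraries, and their summed CPM, led by Irf7, was 3519, 1996, 2473, 3452 and 3259 in PBS replicates 1 to 5 and 2523, 341, 302, 288 and 249.99 in DMM replicates 1 to 5. DMM replicates 2 to 5 were far below the other 6 libraries, and DMM replicate 1 lay within the PBS range, as it did for most of the falling interleukin genes. Of 8 proximal tubule markers 3 were called higher (Lrp2, the most abundant, Cubn and Slc13a3), with sums of 1989, 2064, 5062, 816 and 1555 CPM in PBS replicates 1 to 5 and 1451, 4096, 4925, 4071 and 5946 CPM in DMM replicates 1 to 5. PBS replicate 3 lay within the range of DMM replicates 2 to 5 and DMM replicate 1 within that of the other PBS libraries. Of 7 markers of the distal nephron and collecting duct 3 were called higher (Slc12a1, Slc12a3 and Calb1), with Umod as the most abundant and sums of 3194, 2689, 4453, 2019 and 1782 CPM in PBS replicates 1 to 5 and 2809, 4318, 4959.8, 1852 and 5299 CPM in DMM replicates 1 to 5. Of 7 fibroblast markers 2 were called lower (Col1a2 and Lum), with Col3a1 as the most abundant and sums of 6361, 9413, 5113, 13966 and 8829.7 CPM in PBS replicates 1 to 5 and 10705, 5124, 3507, 6603 and 4090.04 CPM in DMM replicates 1 to 5, and of 6 endothelial markers 0 were called, with sums of 717 to 1026 CPM led by Plvap. The part of these lists in the falls of the interleukin genes was not tested.

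For called genes with an entry, the 250 bases upstream of the start site were taken from RefSeq (GRCm38.p6). Of the 10 called genes 4 had an entry, and the window of Il3ra was left out because it lies partly within the deposited gene. This left Il2ra, Il2rg and Il21r, all of the common gamma chain family, whose called member Il2rb had no entry. The windows, each on the strand of its gene and outside it, were chr7:125603179-125603428 (plus strand) for Il21r, chr2:11642542-11642791 (plus strand) for Il2ra and chrX:101268256-101268505 (minus strand) for Il2rg. They were searched on both strands for the interferon-stimulated response element as GAAANNGAAA, the STAT site GAS as TTCNNNGAA and the ETS core GGAAGT, which share the letters GAA without containing each other. Each of the response element and GAS had 0 matches in all 3 windows, where 2.98% and 7.02% of 32851 promoters of the same length held them. The ETS core was found in Il2ra alone, 1 match with its first base 35 bases before the start site and written on the opposite strand (capitals), where 19.7% of promoters held it. A match describes the letters and not the binding of a factor, and a missing match says only that these letters are absent from the window.
Il21r: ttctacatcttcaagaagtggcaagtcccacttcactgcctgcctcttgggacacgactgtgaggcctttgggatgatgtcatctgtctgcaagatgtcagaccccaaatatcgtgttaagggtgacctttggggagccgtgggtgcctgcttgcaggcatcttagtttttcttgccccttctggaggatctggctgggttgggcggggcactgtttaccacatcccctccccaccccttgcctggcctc
Il2ra: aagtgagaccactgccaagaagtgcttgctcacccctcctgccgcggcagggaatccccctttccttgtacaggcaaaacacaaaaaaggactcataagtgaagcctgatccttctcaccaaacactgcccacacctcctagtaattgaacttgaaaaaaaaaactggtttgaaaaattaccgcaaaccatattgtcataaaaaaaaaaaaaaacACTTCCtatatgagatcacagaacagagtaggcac
Il2rg: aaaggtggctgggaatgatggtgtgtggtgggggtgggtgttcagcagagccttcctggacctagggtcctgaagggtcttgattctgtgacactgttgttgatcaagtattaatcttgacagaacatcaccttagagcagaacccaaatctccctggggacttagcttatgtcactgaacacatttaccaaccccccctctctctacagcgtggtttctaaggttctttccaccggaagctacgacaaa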

How the data were processed

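The authors aligned reads to mm10 (HISAT2 2.0.5 in the submitters' processing notes) and deposited raw counts per gene, FPKM per library, gene length in base pairs, and group means, a signal in size-factor-scaled counts. The counting tool, the annotation release and the strand setting are not given in the sources used here. The deposited table also holds the authors' DESeq2 fold changes, p-values and adjusted p-values, which were not used. The group means served to find which libraries carry weight. The deposited FPKM served as another scale for levels. The gene length that the authors deposited scaled CPM to levels per kb.

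Counts of 5 PBS and 5 DMM libraries were filtered by filterByExpr, scaled by TMM and tested with edgeR 4.0.16 (quasi-likelihood F test) in R 4.3.3, over 16505 genes in all 10 libraries and 16550 in the 8 that carry weight, with Benjamini-Hochberg adjustment over all genes. Genes were named when called, when past an unadjusted p under 0.05 and a fold of 1.5 over all 10 libraries, when among the 3 most abundant ligands or receptors per kb, or as partners of these, with at most 8 signaling genes by smallest p over the 8 libraries. Il5ra, Il7, Il7r, Il16, Il17d, Il17ra, Il17rc, Il18r1, Il20rb, Il22ra1, Il24, Il31ra and Il1f9 were added after their values were seen. A gene of the signaling list is not reported here and was taken out of the list after the values were seen, so the counts for that list leave it out. Members and lists were chosen with earlier results of these data known. The steps were tested on simulated counts. Alternatives were DESeq2 1.42.0, RLE, library size alone, other filters, thresholds and gene sets, the replicate number as a block, and each library left out in turn.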

Additional observations from a re-analysis of the deposited data

Results flagged for a closer look

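Some libraries lay far from the rest of their own group. The gap between the most extreme of the 5 libraries and its nearest neighbour, divided by the range of the group, was compared with Dixon's critical value of 0.71. It was above that value in 12 of 52 groups of tested genes that the naming rule selected (genes added later were not screened). That rule takes in genes called without PBS replicate 3 and DMM replicate 1, and the genes share libraries. The count of 12 was therefore not set against chance. DMM replicate 1 was the library far above its group for Il27 (1.25 CPM, the next at 0.305), Il2ra (4.05 CPM, the next at 1.34), Il12rb1 (4.05 CPM, the next at 1.72) and Il6ra (43.5 CPM, the next at 30.9). PBS replicate 3 was far below its group for Il27ra (8.01 CPM, the next at 11.6). These are the libraries without weight in the deposited group means.

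DMM replicate 4 was the outlying library for 5 other genes among those screened. Its values were 1324 CPM for Il6st (the next at 689), 198.9 CPM for Il13ra1 (the next at 149), 2.26 CPM for Il12rb2 (the next at 0.636) and 8.69 CPM for Il11 (the next at 3.50), all above its group, and 39.7 CPM for Il34, below its group (the next at 90.3). In PBS, replicate 4 was far above its group for Il11 (22.3 CPM, the next at 2.55) and replicate 5 for Il2rb (25.6 CPM, the next at 18.9).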

How the results depend on the processing

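Over all 10 libraries, 0 interleukin genes were called, and this became 1 (a receptor, 0 ligands) with DESeq2, 8 (1 ligand, 7 receptors) without DMM replicate 1 and 10 (2 ligands, 8 receptors) over the 8 libraries. Leaving out each library in turn gave 0 to 8 calls, 0 to 1 of ligands and 0 to 7 of receptors, and 0 under each other setting. Over the 8 libraries the 10 calls were 10 with DESeq2 and 11 with library size alone, which added Il18r1, and 7 with no filter on low counts, where ligands went from 2 to 0. Leaving out each of the 8 in turn gave 5 to 13 calls, 0 to 3 of ligands and 5 to 10 of receptors, the fewest without PBS replicate 2 or 5 or DMM replicate 3 or 5, while calls over all genes ranged from 407 to 2410 against 1042. The 13 and the 2410 came without DMM replicate 4, and 1 of the 13, Il1f6, was higher. In each of these fits Il3ra, Il21r, Il2ra, Il2rg and Il10ra, 5 of the 10, were called. The cause was not tested. Median levels per kb from the deposited FPKM were 1.71 for the tested ligands and 3.75 for the tested receptors.

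With the replicate number as a block, interleukin genes called over the 8 libraries went to 0 (0 ligands, 0 receptors), as did all genes. That fit has 3 numbers in both groups and 2 residual degrees of freedom, and the log2 fold changes of the 10 genes stayed below 0, at −0.60 to −3.00. A pairing of the mice by number is not given in the sources used here. Libraries of the same number correlated at −0.22 to 0.34 and 0 numbers were each other's best match both ways. Such correlations cannot decide whether the mice were paired.

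Genes that were not called changed direction under some settings, and the cause was not tested. With library size alone Il13ra1 went to −0.013 in all 10 libraries and −0.071 in the 8, and Il34 to −0.054 in the 8, a setting that lowered the log2 fold changes of all 15 genes compared, and with the block Il34 went to −0.17. Leaving out each of all 10 in turn gave log2 fold changes of −0.067 to 0.16 for Il13ra1 (below 0 without DMM replicate 4) and −0.10 to 0.078 for Il4ra (above 0 without PBS replicate 4 or 5 or DMM replicate 2). Leaving out each of the 8 gave −0.12 to 0.25 for Il34 (below 0 without PBS replicate 1 or 4 or DMM replicate 2, 3 or 5), −0.034 to 0.48 for Il6st and −0.14 to 0.13 for Il13ra1 (both below 0 without DMM replicate 4). At this depth 19 interleukin genes, 16 ligands and 3 receptors, had no more than 3 counts in any library.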
